A study of Mus musculus with 4 samples.

Results

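The ATF4 amino acid response genes are the genes that cells switch on, through the transcription factor ATF4, when amino acids run short or protein synthesis is under stress. Here they were taken as 33 named genes comprising ATF4 and related transcription factors, stress effectors, enzymes of serine, asparagine, proline and one-carbon metabolism, amino acid transporters and cytosolic tRNA synthetases. Each was matched by exact symbol in the deposited count table. All 33 were found among the 53801 genes listed, each symbol had a single gene ID, and all 33 passed the filter on low counts that left 17462 genes for testing.

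The RNA came from osteoclast precursor cells, myeloid cells from which bone-resorbing osteoclasts form by fusion. The donors were C57BL/6 mice with a wild type genotype. Cells from 2 mice, called preparation 1 and preparation 2 here and precursor cells 1 and 2 in the figures, were each given PBS (phosphate-buffered saline, the control) or DKK1 at 200 ng/ml for 3 h, which made 4 libraries and 2 pairs. DKK1 (Dickkopf-1) is a secreted protein that binds the Wnt co-receptors Lrp5 and Lrp6 and blocks canonical Wnt signalling. Each mouse gave 1 library per treatment, and the labels used here state no age or sex of the mice and no tissue from which the cells were taken.

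The libraries held 41163663 to 53537927 counts. Csf1r and Adgre1, markers of macrophages and osteoclast precursors, had 111743 to 120719 counts in preparation 1 and 83074 to 112730 in preparation 2. Of the 8 such markers Cx3cr1 was the lowest, at 680 to 1008 counts. Of 6 markers of mature osteoclasts, Calcr had 0 counts in every library, Dcstamp and Ocstamp had 15 to 96, and Ctsk and Atp6v0d2 had 232 to 1128. Acp5, the tartrate-resistant acid phosphatase, had 18381 to 20102. Markers of other blood cells were present too. Their values are given beside the comparison of the preparations.

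When uncharged tRNAs accumulate, the kinase GCN2 (gene Eif2ak4) phosphorylates the initiation factor eIF2alpha. Most translation slows while the mRNA of Atf4 is translated more efficiently, so ATF4 protein can rise without more Atf4 mRNA, and RNA counts do not measure that step. ATF4 pairs with C/EBP proteins on short DNA elements and raises genes for amino acid uptake, amino acid synthesis and tRNA charging, and also feedback genes such as Trib3. ATF4 is also known to take part in osteoclast differentiation.

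The element bound by ATF4 and C/EBP proteins has the core TGATGNAA. It was searched on both strands in RefSeq promoter windows (GRCm38.p6) that reach from 250 bases before to 50 bases after each listed transcript start. Of the 33 genes, 26 had a window, and 11 of these 26 held the core, against 4.51% of all 27025 genes with a window. The cyclic AMP response element TGACGTCA was found in 0 of the 26 and in 2.03% of all genes. A match is a string of letters and not a measured binding site. Of the windows of Vldlr, only that of the more downstream listed start held the core, and the one at its annotated gene start did not. Matches in 10 of the 11 genes are shown with 10 bases on either side, read 5′ to 3′ on the strand that holds TGATGNAA, with the core in capitals and with the distance of the first base of the core from the transcript start on the gene's own strand. They are grouped by the comparison of the preparations below, as higher in preparation 2 (Chac1 to Trib3), lower (Iars to Yars) or not called (Asns and Gars, with the third such gene not shown).
Chac1, chr2:119351039-119351066, minus strand, from -193: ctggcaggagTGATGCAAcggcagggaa
Nupr1, chr7:126625563-126625590, plus strand, from -110: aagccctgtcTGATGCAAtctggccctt
Pck2, chr14:55540153-55540180, minus strand, from -103: tgtaagatacTGATGTAActttgaaggc
Trib3, chr2:152344029-152344056, plus strand, from 15: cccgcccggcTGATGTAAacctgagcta
Iars, chr13:49682127-49682154, minus strand, from 8: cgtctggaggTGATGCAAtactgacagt
Tars, chr15:11399656-11399683, plus strand, from -15: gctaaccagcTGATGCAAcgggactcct
Vldlr, chr19:27216810-27216837, minus strand, from -200: ctaggagcgcTGATGCAActattgctgc
Yars, chr4:129189896-129189923, plus strand, from 4: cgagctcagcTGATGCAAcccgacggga
Asns, chr6:7693215-7693242, minus strand, from -23: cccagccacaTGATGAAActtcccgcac
Gars, chr6:55037961-55037988, minus strand, from -30: gcccggtgcaTGATGAAAtagcgcagcc

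Chac1 is shown in full because it had the largest difference between the preparations among the 33 genes. The 250 bases before its start (chr2:119350992-119351241, plus strand, GRCm38.p6) are 60.8% G or C and carry the core once, here as its reverse complement in capitals.
Chac1: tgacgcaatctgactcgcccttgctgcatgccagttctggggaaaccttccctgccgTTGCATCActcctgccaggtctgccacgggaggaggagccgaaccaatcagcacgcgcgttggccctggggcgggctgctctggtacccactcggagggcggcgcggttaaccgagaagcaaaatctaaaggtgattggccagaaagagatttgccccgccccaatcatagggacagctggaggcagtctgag

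Levels between genes were compared on the FPKM values in the authors' deposited tables, which are scaled to gene length. Slc3a2, the heavy chain shared by several amino acid transporters, had the highest median FPKM of the 33 in the authors' deposited tables, at 131 (123 to 138 over the 4 libraries). Cebpb, a C/EBP partner of ATF4, followed at 83.2 (50.9 to 104) and Atf4 itself at 67.7 (64.0 to 78.4), and their ranges overlapped. Nars and Gars, the asparaginyl- and glycyl-tRNA synthetases, were next among the authors' deposited values at 51.4 (47.3 to 53.9) and 24.5 (21.6 to 28.4). At the other end stood Vldlr, a lipoprotein receptor induced by ATF4, with a deposited median FPKM of 0.591 (0.190 to 1.01). Trib3 and Chac1 were listed in the authors' deposited table of preparation 2 only, at FPKM values of 0.902 to 1.35 and 1.30 to 1.82. The ATF4 targets Chac1, Trib3, Ddit4 and Asns thus sat in the lower part of the range.

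**Figure D1:**
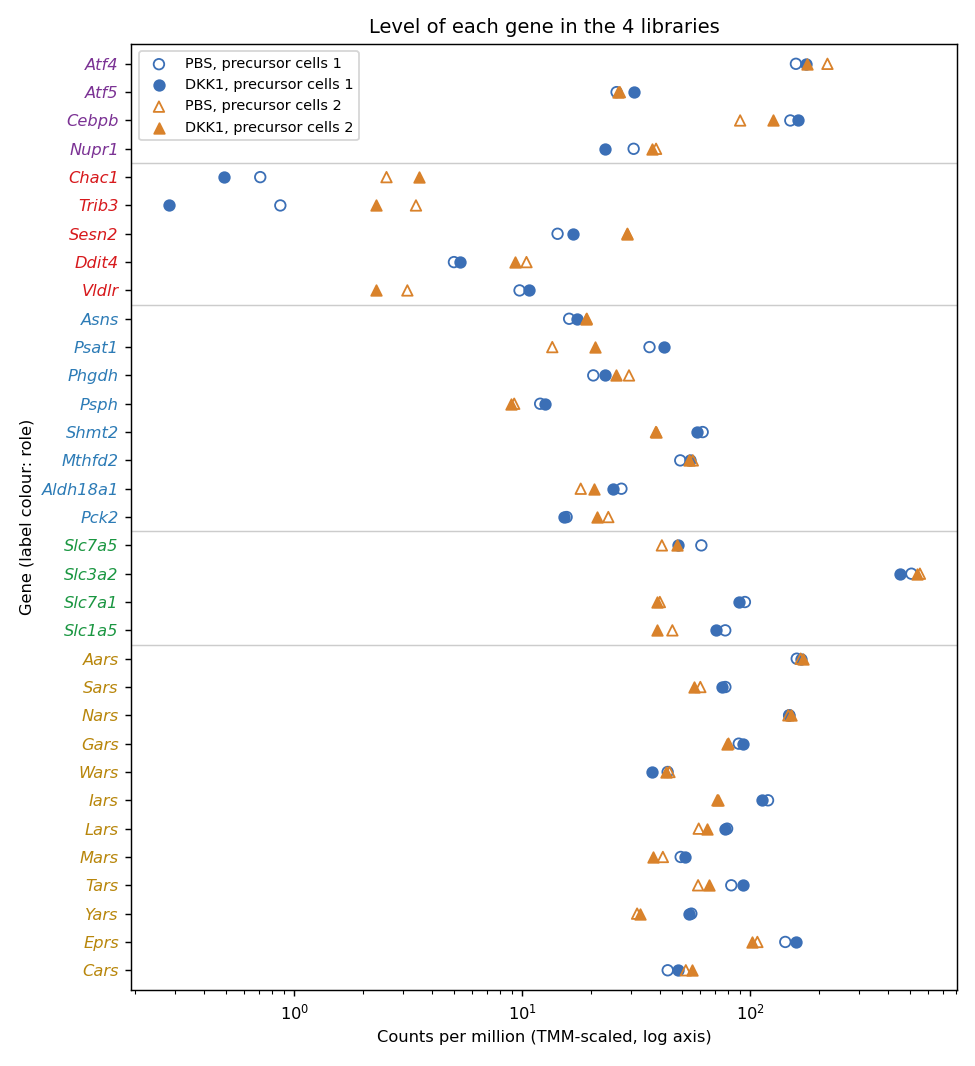
CPM (counts scaled to library size with TMM factors, log axis) of the 33 genes in each of the 4 libraries, with open symbols for PBS, filled for DKK1, circles for preparation 1 and triangles for preparation 2. Rows run by role from transcription factors through stress effectors, metabolic enzymes and transporters to tRNA synthetases. For genes such as Slc7a1 and Sesn2 the symbols separate by shape and not by filling.

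The comparison the study was built on asked what 3 h of DKK1 does to the precursor cells. Of the 33 genes, 0 passed edgeR's quasi-likelihood test with the pair as a block at a Benjamini-Hochberg adjusted p under 0.05, against 0.0515% of all 17462 genes (0.0401% higher and 0.0115% lower with DKK1). The lowest adjusted p among the 33 was 0.959, and 2 of them had an unadjusted p under 0.05, which is 6.06% beside 4.47% of all genes. The median log2 change of the 33 was -0.00024 and that of all tested genes -0.0015. For 27 of the 33 the 95% interval of the log2 change lay within 0.5 either way, and for 31 within 1. The exceptions to the wider bound were Trib3 and Chac1, with 16 to 132 and 28 to 153 counts per library.

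The transcription factors had small or divided changes. Atf4 stood at 158 CPM with PBS and 175 with DKK1 in preparation 1, and at 218 and 177 in preparation 2. Its level was thus higher with DKK1 in one pair and lower in the other (log2 0.14 in preparation 1 and -0.30 in preparation 2). The edgeR log2 change over the n = 2 pairs was -0.08 (model SE 0.11, edgeR adjusted p = 0.972). Cebpb had the smallest unadjusted p of the 33: 150 and 162 CPM (PBS, then DKK1) in preparation 1 and 90.2 and 126 in preparation 2. Both pairs moved up, but the groups overlapped, since PBS of preparation 1 exceeded DKK1 of preparation 2 (log2 0.29, 95% CI 0.05 to 0.53, unadjusted p = 0.0247, edgeR adjusted p = 0.959). Atf5, a relative of ATF4 under similar translational control, moved by a log2 of 0.12 (edgeR adjusted p = 0.970). Nupr1, a small stress-induced nuclear cofactor, went from 30.8 to 23.0 CPM in preparation 1 and from 38.6 to 37.1 in preparation 2 (log2 -0.24, SE 0.12).

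Stress effectors downstream of ATF4 were not called either. Chac1, which breaks down glutathione, had 40 and 28 counts (PBS, then DKK1) in preparation 1 and 98 and 153 in preparation 2. Trib3, a pseudokinase that feeds back on ATF4, had 49 and 16 counts in preparation 1 and 132 and 99 in preparation 2. Trib3 was lower with DKK1 in both pairs (log2 -0.81, 95% CI -1.77 to 0.16, edgeR adjusted p = 0.959), and Chac1 moved apart between them (log2 0.23, 95% CI -0.70 to 1.17). Ddit4 and Sesn2, which restrain the growth kinase mTORC1, had log2 changes of -0.05 and 0.10. Vldlr had a log2 change of -0.01.

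Among the enzymes, Psat1, which makes phosphoserine in the serine pathway, had the largest positive change: 36.1 and 41.7 CPM (PBS, then DKK1) in preparation 1 and 13.5 and 20.8 in preparation 2. It was higher with DKK1 in both pairs, yet its PBS level in preparation 1 lay above its DKK1 level in preparation 2 (log2 0.37, 95% CI 0.05 to 0.69, unadjusted p = 0.0295, edgeR adjusted p = 0.959). The other enzymes of the serine pathway, Phgdh and Psph, had log2 changes of -0.01 and 0.02. Asns, the asparagine synthetase, had 16.0 and 17.4 CPM in preparation 1 and 19.2 and 19.1 in preparation 2 (log2 0.06, 95% CI -0.23 to 0.35). The mitochondrial folate enzymes Shmt2 and Mthfd2 had log2 changes of -0.04 and 0.05, Aldh18a1 of proline synthesis 0.02, and Pck2, the mitochondrial phosphoenolpyruvate carboxykinase, -0.10.

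The 4 transporter genes all had negative log2 changes, from -0.18 to -0.07, and 0 were called. Slc1a5, a carrier of glutamine and other neutral amino acids, stood at 77.6 and 70.5 CPM (PBS, then DKK1) in preparation 1 and at 45.5 and 38.9 in preparation 2 (log2 -0.18, SE 0.08, edgeR adjusted p = 0.959). Slc3a2 stood at 509 and 452 CPM in preparation 1 and at 554 and 536 in preparation 2 (log2 -0.11, SE 0.05). Both were lower with DKK1 within each pair while the groups overlapped. Slc7a5, the light chain that joins Slc3a2 to carry large neutral amino acids, went from 60.9 to 48.1 CPM in preparation 1 and from 40.9 to 47.8 in preparation 2, so its pairs went opposite ways. Slc7a1, a carrier of arginine and lysine, had a log2 change of -0.07.

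The 12 tRNA synthetases, each of which loads 1 or more amino acids onto their tRNAs, had log2 changes from -0.15 (Wars) to 0.16 (Tars), with 7 positive and 5 negative. Tars, the threonyl-tRNA synthetase, had 82.5 and 92.5 CPM (PBS, then DKK1) in preparation 1 and 59.0 and 65.5 in preparation 2 (log2 0.16, 95% CI -0.01 to 0.33, edgeR adjusted p = 0.959). Wars, the tryptophanyl-tRNA synthetase, had 43.4 and 36.8 CPM in preparation 1 and 44.2 and 42.4 in preparation 2 (log2 -0.15, SE 0.09). Wars was the only one of the 33 with both DKK1 libraries below both PBS libraries in CPM, as 8.31% of all tested genes were. Aars and Nars were the only members with both DKK1 libraries above both PBS libraries, as 7.93% of all tested genes were. Their log2 changes were 0.05 and 0.02.

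**Figure D2:**
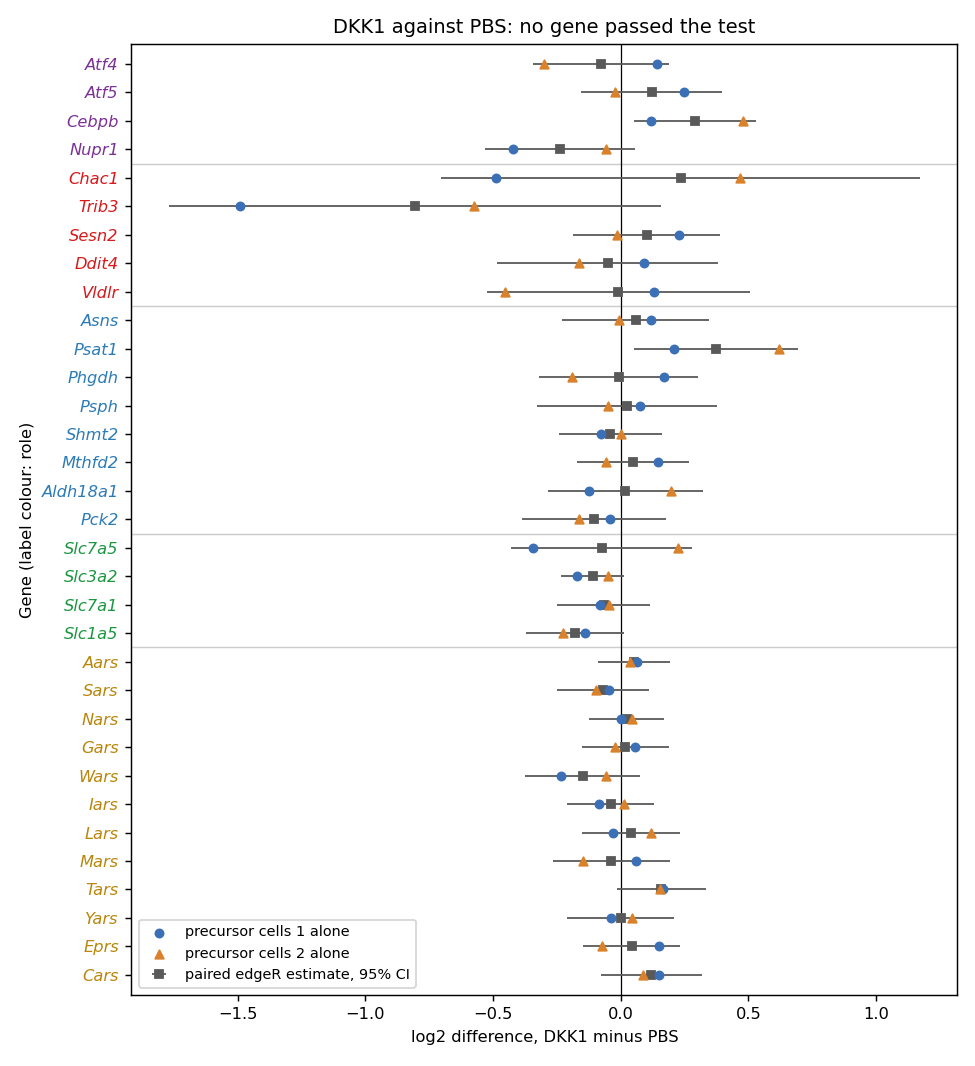
log2 difference DKK1 minus PBS for each of the 33 genes, with grey squares and bars for the paired edgeR estimate and its 95% interval, circles for preparation 1 alone and triangles for preparation 2 alone (log2 CPM, prior count 2). Most intervals include 0, those of Cebpb and Psat1 do not before adjustment over all genes, and the intervals of Chac1 and Trib3 are the widest.

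The 2 pairs showed little of a common direction. The log2 CPM difference had the same sign in both pairs for 14 of the 33 genes (42.4%), 6 positive and 8 negative. Among all tested genes the same sign was found for 51.4%, with 25.2% positive and 26.1% negative in both. The median difference of the 33 was 0.06 in preparation 1 and -0.02 in preparation 2. Within each pair, 7 genes moved in 1 direction in both pairs by more than the 95% interval of their own counting error, namely Psat1, Cebpb, Tars and Cars upwards and Trib3, Slc3a2 and Slc1a5 downwards. Another 5 genes moved beyond counting error in opposite directions, namely Atf4, Phgdh, Aldh18a1, Slc7a5 and Eprs. Of all tested genes, 12.4% moved in 1 direction and 9.88% in opposite directions by that measure. Genes with more counts have narrower intervals and pass more readily, and these shares were not matched on counts. These within-pair intervals use ratios of scaled counts with no prior count. Counting error leaves out the spread between cultures, which 1 library per mouse and treatment cannot show.

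**Figure D3:**
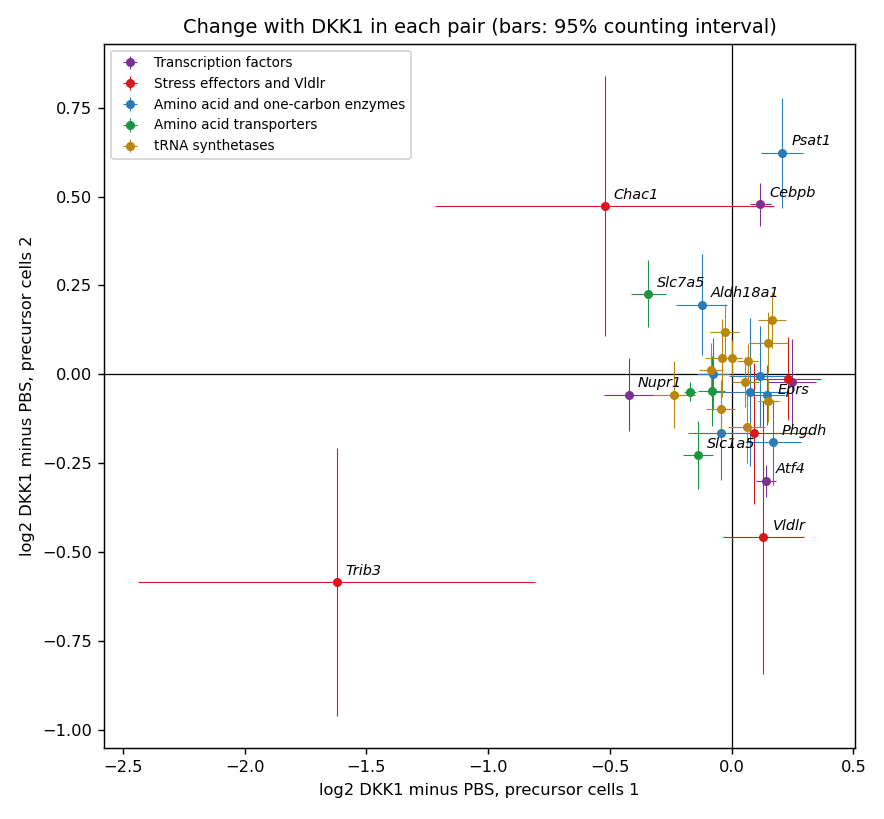
log2 difference DKK1 minus PBS in preparation 1 (horizontal axis) against preparation 2 (vertical axis), 1 point per gene coloured by role, with bars for the 95% counting interval of each pair. Points lie in all 4 quadrants, with Psat1 and Cebpb up in both pairs, Trib3 down in both, and Slc7a5 and Atf4 in the quadrants of opposite signs.

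The authors' deposited tables compare 1 library with 1 library in each pair and so describe those libraries. They marked 0 of the 31 listed members in preparation 1 and 0 of 33 in preparation 2 as changed. The share of all genes so marked was not counted, so these counts of 0 have no background beside them. In the authors' deposited tables an FDR under 0.05 was given to 5 members in preparation 1 (Atf5 and Psat1 higher, Slc7a5, Nupr1 and Wars lower). Of all 13253 genes in that table, 19% had such an FDR. It was given to 6 members in preparation 2 (Psat1, Slc7a5 and Cebpb higher, Atf4, Trib3 and Slc1a5 lower), and to 16.7% of all 13175 genes in that authors' deposited table. Psat1 was the only member with an FDR under 0.05 and the same direction in both of the authors' deposited tables, at log2 ratios of 0.21 and 0.62. Slc7a5 had one in both with opposite signs, at -0.34 and 0.23.

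Neighbouring genes of the pathway gave the same count of 0 called by edgeR with DKK1. Among 16 kinases, subunits and phosphatase regulators that control eIF2alpha, 7 changes were positive and 9 negative. The smallest p values there were those of Eif2b4, a subunit of the eIF2 exchange factor (log2 0.32), Eif2ak2, the double-stranded RNA kinase PKR (0.19), and Eif2ak3, the kinase PERK (-0.25). Of 8 partners and related factors, Batf3 (log2 0.87), Cebpg (0.23) and Jdp2 (-0.16) had the smallest p. Of 19 other ATF4 targets tested, 5 had a positive and 14 a negative change, and the smallest p values were those of Gpt2, an alanine aminotransferase (log2 0.57), Pycr1 of proline synthesis (0.65) and Vegfa (-0.20). Among 11 further cytosolic synthetases and scaffold proteins the smallest p values belonged to Farsa (log2 -0.13), Vars (-0.07) and Hars (0.06). Among 17 mitochondrial synthetases Vars2 (log2 -0.28) and Tars2 (-0.15) were among those with the smallest p, and among 15 genes of mTORC1 and amino acid sensing they were Rptor (log2 0.11), Nprl3 (-0.13) and Depdc5 (0.10). All of these had an edgeR adjusted p of 0.959 or above.

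The precursor cells of the 2 mice differed far more than the treatments did. With treatment as a covariate, 21 of the 33 genes (63.6%) passed edgeR's test between preparation 2 and 1, against 33.9% of all tested genes. Of the 21, 7 were higher in preparation 2 (21.2% of the 33, all genes 17.9%) and 14 were lower (42.4%, all genes 15.9%). The median log2 difference was -0.19 over the 33 genes and -0.0034 over all tested genes. In CPM, both libraries of preparation 2 were above both of preparation 1 for 11 of the 33 (all genes 33.7%) and below both for 17 (all genes 35.3%). Genes with more counts pass edgeR's test more readily, and the shares called were not matched on counts. By size alone, 11 of the 33 and 6403 of all 17462 tested genes differed by more than 1.5-fold. Each preparation came from 1 mouse, so the test compares these preparations, and mouse, culture and handling cannot be told apart. Without a filter on low counts the number called was 11, and 10 of the 21 lost their call. The 21 were also fewer when a library of preparation 2 was left out, with 11 without PBS and 13 without DKK1.

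Of the 4 stress effectors and Vldlr, Chac1, Trib3, Sesn2 and Ddit4 were higher and Vldlr was lower in preparation 2. Chac1 was at 0.708 and 0.493 CPM (PBS, then DKK1) in preparation 1 against 2.53 and 3.52 in preparation 2, a 5.03-fold difference (log2 2.33, 95% CI 1.34 to 3.33, edgeR adjusted p = 0.00786). Trib3 was at 0.867 and 0.282 CPM against 3.41 and 2.28 (log2 2.32, 95% CI 1.30 to 3.33, edgeR adjusted p = 0.00861). Sesn2 was at 14.3 and 16.7 CPM (PBS, then DKK1) in preparation 1 and at 28.9 and 28.6 in preparation 2, with no overlap (log2 0.89, SE 0.12, edgeR adjusted p = 0.00288). Ddit4 was at 5.01 and 5.34 CPM against 10.4 and 9.29 (log2 0.93, SE 0.17, edgeR adjusted p = 0.0108). Vldlr was at 9.72 and 10.6 CPM against 3.13 and 2.28 (log2 -1.92, 95% CI -2.49 to -1.36, edgeR adjusted p = 0.00194). Of these 5 genes, Chac1, Trib3 and Ddit4 lost their call without the filter on low counts (adjusted p = 0.0513, 0.0530 and 0.0522). The adjusted p of Trib3 was 0.122 without PBS of preparation 2 and that of Chac1 0.0572 without DKK1 of preparation 2. The log2 difference of Trib3 was 3.31 without PBS of preparation 1 and 1.70 without DKK1 of preparation 1.

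Of the 4 amino acid transporters, 2 were lower and 1 was higher in preparation 2. Slc7a1 had the smallest p of the 33: 94.6 and 89.4 CPM (PBS, then DKK1) in preparation 1 against 40.1 and 38.8 in preparation 2 (log2 -1.22, SE 0.07, edgeR adjusted p = 0.000154). Slc1a5 followed, at 77.6 and 70.5 against 45.5 and 38.9 (log2 -0.81, SE 0.08, edgeR adjusted p = 0.000886). Slc7a5 was not called (log2 -0.29, 95% CI -0.64 to 0.07). Slc3a2 was slightly higher in preparation 2 (log2 0.18, edgeR adjusted p = 0.0364), a call that ended with upper-quartile scaling (adjusted p = 0.0905).

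Of the 8 enzymes, 3 were lower, 1 was higher and 4 were not called. Psat1 was lower in preparation 2 (log2 -1.19, SE 0.13, edgeR adjusted p = 0.0015), and so were Shmt2, at 61.8 and 58.6 CPM against 38.5 in both libraries of preparation 2 (log2 -0.64, SE 0.08, edgeR adjusted p = 0.00253), and Aldh18a1 (log2 -0.43, edgeR adjusted p = 0.0437). Pck2 was higher (log2 0.55, edgeR adjusted p = 0.0153). The call of Aldh18a1 ended under DESeq2 (adjusted p = 0.120) and that of Pck2 without the filter on low counts (adjusted p = 0.0578). Phgdh, the enzyme one step before Psat1, had a log2 difference of 0.34, Psph, one step after it, of -0.44, Mthfd2 of 0.08 and Asns of 0.19, and none of these 4 passed the test.

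Of the 4 transcription factors and cofactors, 1 was lower, 1 was higher and 2 were not called. Cebpb was lower (log2 -0.55, edgeR adjusted p = 0.00852) and Nupr1 higher (log2 0.51, edgeR adjusted p = 0.0231), while Atf4 (0.24, 95% CI -0.03 to 0.51) and Atf5 (-0.09) were not called. Without the filter on low counts both calls ended (adjusted p = 0.0593 for Cebpb and 0.107 for Nupr1). The call of Cebpb also ended without PBS or DKK1 of preparation 1 and without PBS of preparation 2 (adjusted p = 0.0739, 0.124 and 0.0884), with log2 differences from -0.59 to -0.31. That of Nupr1 ended without DKK1 of preparation 1 and without PBS or DKK1 of preparation 2 (adjusted p = 0.108, 0.210 and 0.190).

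Of the 12 tRNA synthetases, 7 were lower in preparation 2 and 0 were higher. Iars, the isoleucyl-tRNA synthetase, was at 119.5 and 113 CPM (PBS, then DKK1) in preparation 1 and at 71.7 and 72.4 in preparation 2 (log2 -0.69, SE 0.07, edgeR adjusted p = 0.00105). Yars, the tyrosyl-tRNA synthetase, was at 55.1 and 53.7 CPM against 31.9 and 32.9 (log2 -0.75, SE 0.09, edgeR adjusted p = 0.00171). Eprs, which loads glutamate and proline, Tars, Sars, Mars and Lars were lower by log2 differences between -0.52 and -0.34. Aars, Nars, Wars, Gars and Cars did not pass the test, with log2 differences of 0.04, 0.01, 0.11, -0.19 and 0.23. The signs of Aars and Nars turned with upper-quartile scaling, under which 8 of the 12 were called lower. Without the filter on low counts 5 of the 12 were, with Lars and Mars lost (adjusted p = 0.0609 and 0.0790), and Mars was lost under DESeq2 as well (adjusted p = 0.0687).

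**Figure D4:**
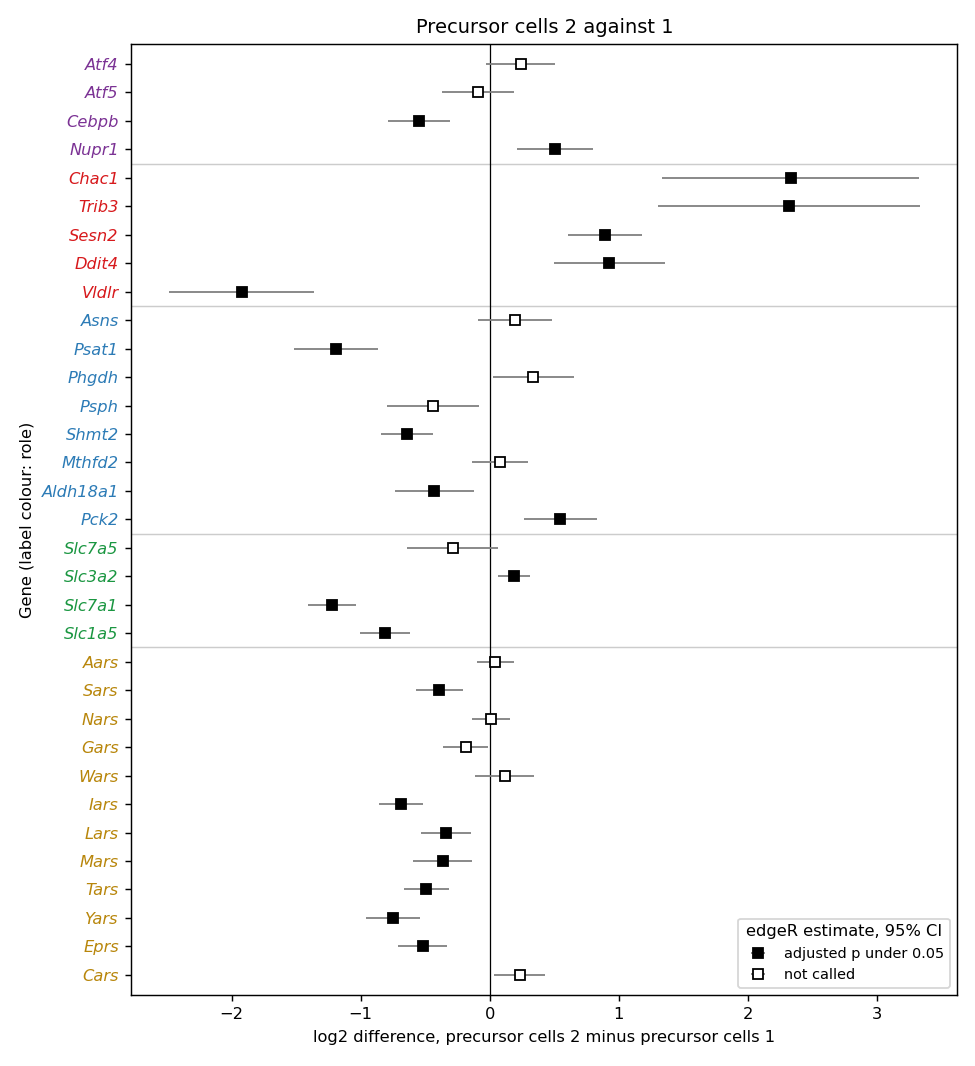
log2 difference preparation 2 minus preparation 1 for each of the 33 genes, as edgeR estimates with 95% intervals, filled where the adjusted p was under 0.05. Chac1, Trib3, Sesn2 and Ddit4 lie to the right of 0. Slc7a1, Slc1a5, Psat1, Vldlr and 8 of 12 tRNA synthetases lie to the left, 7 of these synthetases filled.

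Genes with the core TGATGNAA were found in both directions. Of the 11 genes that hold it, 4 were higher in preparation 2 (Chac1, Nupr1, Pck2, Trib3), 4 were lower (Iars, Tars, Vldlr, Yars) and 3 were not called (Aars, Asns, Gars). Of the 15 genes with a window but no match, 3 were higher, 7 lower and 5 not called. The median log2 difference was 0.04 with the core and -0.39 without it, and this gap was not tested. The 7 other genes had no window and were left out of these counts.

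Calls between the preparations among pathway genes outside the 33 varied by list. Of all tested genes, 17.9% were called higher in preparation 2 and 15.9% lower. Of 19 other ATF4 targets, 7 were higher in preparation 2 and 5 lower. Slc7a11, the cystine carrier, had a log2 difference of -2.15 (edgeR adjusted p = 1.65e-05). It had 16073 and 14442 counts (PBS, then DKK1) in preparation 1 and 2316 and 2654 in preparation 2. Cdkn1a, an inhibitor of the cell cycle, was higher by 1.32 and Vegfa by 1.25 (edgeR adjusted p = 4.02e-05 and 0.000613). Of 11 further cytosolic synthetases and scaffold proteins, 6 were lower and 0 higher, with the smallest p for Eef1e1 (log2 -0.88), Hars (-0.47) and Vars (-0.41). Of 17 mitochondrial synthetases, 2 were lower, Mars2 (log2 -1.07) and Nars2 (-0.83), and 0 higher, and Rars2 (-0.36) did not pass. Of 15 mTORC1 and amino acid sensing genes, Sesn3 alone was called (log2 -0.83), with Sesn1 (-0.25) and Tsc1 (-0.22) next.

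Among 8 partners and related factors, 3 were higher and 3 lower in preparation 2. Cebpa (log2 -1.13) and Cebpd (-0.72) were lower and Atf3 (0.77) was higher, at edgeR adjusted p values of 0.000107, 0.000403 and 0.000426. Of the 16 genes of eIF2alpha control, 2 were higher and 4 lower (all genes 17.9% and 15.9%). Eif2ak2, the kinase PKR and a known interferon target, had the smallest p (log2 1.62, edgeR adjusted p = 6.83e-05), followed by Eif2s2 (-0.46) and Eif2b1 (-0.61). Eif2ak4, which encodes GCN2, had a log2 difference of -0.20 and was not called.

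Other cell states and cell types differed between the preparations along with these genes. The counts of markers called below stand beside 17.9% of all tested genes called higher and 15.9% called lower. All 12 interferon-induced genes listed were higher in preparation 2 (median log2 2.92), from a log2 of 1.48 for Oas2 to 4.33 for Ifit2, and the smallest p values were those of Cxcl10, Mx1 and Rsad2 (log2 3.41, 3.74 and 3.56). Their summed level was 1546 and 1706 CPM (PBS, then DKK1) in preparation 1 and 11144 and 11299 in preparation 2. Wars is known as an interferon-induced synthetase, and its log2 difference of 0.11 (95% CI -0.11 to 0.34) stood apart from that group. Plasma cell markers summed to 174 to 190.2 CPM in preparation 1 and to 701 to 714 in preparation 2, with 4 of 5 called higher. The other marker, Sdc1, was not called (log2 -0.05). Sdc1 made up most of the sum in preparation 1, at 168 to 182 CPM against 158 to 182 in preparation 2. Jchain, the joining chain of immunoglobulins, had 129 to 169 counts against 19488 to 22255, and Tnfrsf17 had 0 counts in preparation 1.

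B cell markers were lower in preparation 2 (6 of 6 called, 112 to 180 CPM against 27.5 to 27.6), and Vpreb1 had 0 counts there. Neutrophil markers were higher (6 of 6 called, 4364 to 4415 CPM against 8219 to 8479). Summed macrophage and precursor markers were at 30632 to 30873 CPM in preparation 1 and at 21293 to 21826 in preparation 2. Lyz2, called lower (log2 -0.78), made up most of these sums, at 24765 to 24897 CPM against 14281 to 14679. Of the 8 markers 7 had a positive difference, and Cx3cr1, Cd68 and Csf1r were called higher (log2 0.64, 0.63 and 0.37). Erythroid markers (5 of 6), endothelial markers (3 of 4, Kdr log2 2.74) and mast cell and basophil markers (2 of 4) were called higher in preparation 2, and 2 of 4 megakaryocyte markers lower (Pf4 log2 -1.17). Of 5 stromal markers 2 were higher and 1 lower, and of 5 mature osteoclast markers tested Ctsk (log2 2.27) and Acp5 (0.42) were higher and Dcstamp (-2.04) lower. T and NK cell markers summed to 8.26 to 10.8 CPM in all 4 libraries. Nkg7 made up most of these sums, at 6.71 to 7.38 CPM in preparation 1 and 9.24 to 9.64 in preparation 2. In bulk RNA, fewer cells of a type and less RNA per cell cannot be told apart. The part of these cells in the differences of the ATF4 genes was not tested.

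With DKK1, 0 markers of any of these cell types were called by edgeR. An unadjusted p under 0.05 was found for 3 of 6 B cell, 4 of 6 erythroid and 2 of 5 stromal markers. It was found for at most 1 marker of each other type, and for 4.47% of all tested genes. All 4 erythroid markers with such a p were globin genes, while Alas2 had a log2 change of 0.03. B cell markers had a median log2 change of -0.49, with medians of -0.66 in preparation 1 and 0.04 in preparation 2. The median was -0.42 for erythroid markers (5 of 6 lower in both pairs), -0.53 for mast cell and basophil markers (3 of 4 lower in both pairs) and 0.34 for stromal markers (4 of 5 higher in both pairs).

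Some of the 33 genes share exons with other gene models, and whether the libraries kept strand is not given in the sources used here. In GENCODE M21 (GRCm38), Cebpb shares 312 exon bases with Tmem189, Psph 452 with Cct6a, Atf5 82 each with Nup62 and Il4i1, Mars 68 with Ddit3, Yars 30 with C77080, and Aars 1326 with Exosc6. Phgdh has 13 near-identical models, all processed pseudogenes, which hold few counts. By share of the counts held by a gene and its overlapping or near-identical models, Psph stood at 6.2%, Atf5 at 20.7% and Cebpb at 46.1%. Mars stood at 69.6%, Yars at 89.3%, Phgdh at 93.2% and Aars at 94.8%. These shares take whole models and not the shared bases alone. Reads in near-identical exons, or in exons shared on the same strand as in Aars, may not be assignable to 1 gene. The overlaps of Cebpb, Psph, Atf5, Mars and Yars are with models on the opposite strand. Reads in them are ambiguous if the libraries did not keep strand. The values of these 7 genes carry that uncertainty. The remaining genes named above as called held at least 99.7% of the counts of themselves and any overlapping or near-identical model. As placed by GENCODE M21, Atf4 (ENSMUSG00000042406) spans 80255184 to 80257541 on chromosome 15, Chac1 (ENSMUSG00000027313) 119351229 to 119354381 on chromosome 2, Trib3 (ENSMUSG00000032715) 152337422 to 152344032 on chromosome 2, Slc7a1 (ENSMUSG00000041313) 148327410 to 148399904 on chromosome 5 and Psat1 (ENSMUSG00000024640) 15904678 to 15947337 on chromosome 19. All 33 are protein-coding genes.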

How the data were processed

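The authors deposited raw whole-number counts for each gene. The submitters' processing notes name fastp, HISAT2 and mm10. Which program counted the reads, against which annotation, is not given in the sources used here. Per the file headers, the authors' deposited comparison tables, 1 per pair, hold a log2 ratio of DKK1 over PBS, p-values and FDR of an unstated test, and FPKM. These FPKM were used only to order levels between genes.

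Counts were tested with edgeR 4.0.16 in R 4.3.3 (quasi-likelihood, TMM, filterByExpr) on 17462 genes in all 4 libraries. The model had terms for preparation and treatment and left 1 residual degree of freedom. Tests were two-sided, with Benjamini-Hochberg adjustment over all tested genes. CPM are TMM-scaled, and differences within a pair use a prior count of 2. SE and 95% intervals were derived from the log2 change and its F statistic. That statistic pools information on spread across genes, so an SE is not the spread between a gene's own 2 pairs. Counting intervals are log-scale approximations and cover counting error only. The numbers in the sample names were taken as the mice, since the labels name cells from 2 mice and the authors compared within numbers. Deviations of same-numbered libraries from group means correlated at 0.726 across genes, and the first principal component held 76.1% of the variance. Nothing says whether a mouse's cells were cultured more than once, so p-values measure the spread between these libraries, pooled in part across genes.

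The genes, lists and tests were chosen with earlier results of these data known. All 33 genes are named, with every library's values for Atf4, Asns, Chac1, Trib3, Ddit4, Psat1, Cebpb, Slc7a5 and the 8 smallest p in each test, and 3 genes per pathway list and test, except 1 gene and the promoter matches of another that are not reported here. Cell type genes were also named after their values were seen. Castor1 and Castor2 had no row under those symbols, and Cbs and Fgf21 were not tested for low counts. BLAST 2.17.0 searched transcripts for near-identical gene models (at least 95% identity, 100 bases and 50% of the shorter one). Simulated counts with known changes were used to test the model. DESeq2 1.42.0 and limma 3.58.1 served as alternatives.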

Additional observations from a re-analysis of the deposited data

Results flagged for a closer look

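In 5 genes the change with DKK1 went opposite ways in the precursor cells of the 2 mice by more than the counting error of each pair, as they did in 9.88% of all tested genes. The difference between the pairs was not tested, because each pair holds 1 library against 1 and the spread between cultures is unknown. The log2 change in preparation 2 minus that in preparation 1 was -0.44 for Atf4 (0.14 and -0.30 in preparations 1 and 2), -0.36 for Phgdh (0.17 and -0.19) and -0.23 for Eprs (0.15 and -0.07). It was 0.57 for Slc7a5 (-0.34 and 0.23) and 0.32 for Aldh18a1 (-0.12 and 0.20).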

How the results depend on the processing

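With DKK1, 0 of the 33 genes were called under every alternative run: RLE or upper-quartile scaling, no filter, a filter of 10 CPM in 2 libraries, DESeq2, limma-voom, legacy quasi-likelihood, no replicate block, and each library left out. Over all genes these gave 0 to 46 calls beside 9. Without the replicate block the median log2 change of the 33 was 0.0074, and with single libraries left out (also fitted without the block, which leaves the mice unbalanced) it ran from -0.0879 to 0.132. Such fits turned the sign of 11 to 14 uncalled genes each. The same-sign count stayed at 14 with prior counts of 0.5 and 5 and with total-count scaling.

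Between the preparations, 21 genes were called. No filter gave 11 (3509 of all genes beside 5913), and leaving out single libraries, which leaves 1 preparation with a lone library assumed to vary like the others and no treatment term, gave 11 to 17. The other alternatives gave 18 to 22. No called gene changed sign, and 8 of the 21 (Sesn2, Psat1, Shmt2, Slc7a1, Slc1a5, Vldlr, Iars and Yars) were called in every alternative. The median log2 difference was -0.32 with the filter of 10 CPM, which drops Chac1, Trib3 and Ddit4. Single libraries decided calls of Cebpb, Ddit4, Nupr1, Pck2, Slc3a2, Aldh18a1, Sars, Lars, Mars, Tars and Eprs as well as Chac1 and Trib3. Depth limits Chac1 and Trib3 most, with 16 counts in the lowest library.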
